A study of Mus musculus with 4 samples.

Results

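Cell cycle exit genes are described here through 8 members, Cdkn1a, Cdkn1b, Cdkn1c, Cdkn2c, Btg1, Btg2, Gadd45a and Gadd45g. They were chosen by name as growth arrest genes and are 8 of the 29161 genes in the deposited count table, where all 8 were found. Cells divide when cyclin-dependent kinases, switched on by cyclins, inactivate the retinoblastoma family and release the E2F factors that drive DNA replication. The Cip/Kip inhibitors Cdkn1a (p21), Cdkn1b (p27) and Cdkn1c (p57) bind cyclin-kinase complexes, whereas the INK4 inhibitor Cdkn2c (p18) blocks the G1 kinases Cdk4 and Cdk6. Btg1 and Btg2 are antiproliferative adaptors that promote mRNA deadenylation, and Gadd45a and Gadd45g are small stress-responsive proteins linked to growth arrest. In the intestinal crypt, Neurog3 is switched on as dividing secretory progenitors commit to the enteroendocrine fate and leave the cell cycle.

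The cells came from enteroids, which are epithelial mini-guts cultured in Matrigel, grown from the small intestine of female CD1 mice carrying 1 Neurog3eYFP reporter allele (Neurog3eYFP/+). All cells in the study carried that allele, so none of the groups below is a wild-type control, and enteroid cultures lack the nerves, immune cells and luminal contents of the gut. Living eYFP-positive cells were sorted at 1 cell per well, and polyadenylated RNA was sequenced with a plate-based single-cell kit. The 290 cells lay on 4 plates, which are the replicates throughout. Duodenum plate 1 came from tissue of 39 weeks of age (72 cells), duodenum plates 2 and 3 from 12 weeks (83 and 72 cells), and the jejunum plate from 12 weeks (63 cells). No treatment was given. Whether the 3 duodenum plates came from different mice is not given in the sources used here, so p-values measure the spread between plates, which may be technical.

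Cells were placed in 4 classes by 1 gene each. Neurog3-positive cells, with 5 or more Neurog3 counts, numbered 50 (7, 12, 24 and 7 in duodenum plates 1, 2 and 3 and the jejunum plate, the order used for all plate values here). Ghrl-high cells, with at least 1000 counts per 1000000 counts (CPM) of the ghrelin gene, numbered 16 (2, 6, 2 and 6). Tph1-high cells, with a CPM of at least 200 for the enzyme that starts serotonin synthesis, numbered 97 (21, 25, 20 and 31). Chgb-low cells, with a CPM under 2000 for the secretory granule protein chromogranin B, numbered 139 (44, 37, 39 and 19). Cells with 5 or more counts of the proliferation marker Mki67 numbered 10 (1, 2, 6 and 1). The classes overlap: 17 Neurog3-positive cells were also Tph1-high, 24 were Chgb-low, and 12 of the 16 Ghrl-high cells were Chgb-low. No Tph1-high cell was Chgb-low or Ghrl-high. For levels by group the cells were therefore also split without overlap into 33 Neurog3-positive cells, 17 Neurog3-positive and Tph1-high cells, 80 other Tph1-high cells, 16 Ghrl-high cells, 103 other Chgb-low cells and 41 other Chgb-high cells.

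Around the thresholds, the lowest Neurog3-positive cell had 5 Neurog3 counts and the highest cell below it 3. The same neighbours were 1284 and 942 CPM for Ghrl, 223 and 185 CPM for Tph1, and 2198 and 1712 CPM for Chgb. Plates held 23893272 to 46490618 counts, with medians of 321534, 432369, 429935 and 678124 counts per cell. No cell was without Chgb counts, and the lowest Chgb level was 64.6 CPM. A few counts of an abundant gene were thus present in every well, and low counts of a member are read below as levels, not as presence. No pair of columns was identical.

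Promoters of the members are shown because the members were high in different cell classes. The windows are the 250 bases before a RefSeq start on GRCm38.p6, read on the gene's strand, and RefSeq windows were matched for 7 of the 8 members. Capitals mark every CANNTG (the E-box core that factors such as Neurog3 bind) and every p53 half-site, both searched on both strands. The E-box forms CAGATG and CAGCTG were also counted. The 4 printed are members described at length below, a choice made with their values in view. Cdkn1a lies at chr17:29090976-29100727 (plus strand, with window chr17:29090729-29090978), Cdkn1b at chr6:134920401-134925513 (plus, with window chr6:134920151-134920400), Gadd45a at chr6:67035096-67037457 (minus, with window chr6:67037408-67037657) and Gadd45g at chr13:51846678-51848468 (plus, with window chr13:51846425-51846674).
Cdkn1a: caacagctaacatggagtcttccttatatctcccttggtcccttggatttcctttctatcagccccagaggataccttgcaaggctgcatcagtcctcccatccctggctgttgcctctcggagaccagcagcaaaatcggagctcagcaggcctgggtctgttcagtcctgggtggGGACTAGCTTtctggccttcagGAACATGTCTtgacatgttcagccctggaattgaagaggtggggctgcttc
Cdkn1b: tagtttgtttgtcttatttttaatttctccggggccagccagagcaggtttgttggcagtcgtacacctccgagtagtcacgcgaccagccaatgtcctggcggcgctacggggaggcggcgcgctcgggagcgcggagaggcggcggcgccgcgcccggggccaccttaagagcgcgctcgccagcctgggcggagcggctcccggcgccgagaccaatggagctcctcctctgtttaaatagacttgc
Gadd45a: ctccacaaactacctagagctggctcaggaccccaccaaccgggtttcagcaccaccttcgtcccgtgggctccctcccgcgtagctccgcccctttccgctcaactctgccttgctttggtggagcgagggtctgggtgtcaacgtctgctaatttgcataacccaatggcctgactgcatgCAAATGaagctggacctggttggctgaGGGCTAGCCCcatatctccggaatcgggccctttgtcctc
Gadd45g: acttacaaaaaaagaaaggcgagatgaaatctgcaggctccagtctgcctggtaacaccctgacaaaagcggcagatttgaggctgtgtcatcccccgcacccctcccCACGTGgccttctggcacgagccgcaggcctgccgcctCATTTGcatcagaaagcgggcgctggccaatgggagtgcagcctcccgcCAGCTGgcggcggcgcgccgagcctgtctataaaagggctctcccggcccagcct
Cdkn1a has a second RefSeq window further into the gene (chr17:29093519-29093768), not printed, which held 1 CANNTG and no p53 half-site. The printed Cdkn1a window held 2 p53 half-sites and 0 CANNTG, and the Cdkn1b window held neither. The Gadd45a window held 1 of each. The Gadd45g window held 3 CANNTG, 1 of them CAGCTG, and no p53 half-site. No window of the 7 members held a CAGATG. Of 32851 RefSeq windows of this length, 66.22% held a CANNTG, 14.44% a CAGATG, 13.0% a CAGCTG and 7.126% a p53 half-site. A match describes letters only. The other genes lie at chr7:143458339-143461050 (Cdkn1c, minus), chr4:109660876-109667189 (Cdkn2c, minus), chr10:96617006-96622809 (Btg1, plus) and chr1:134075170-134079120 (Btg2, minus).

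The members differed widely in how many cells held them. Btg2 was the most even, with 230 of 290 cells at or above 100 CPM and 1 cell at 0. Cdkn1a had the widest range, from 0 in 12 cells to 11712 CPM, and 1 cell carried 16.7%, 12.8%, 12.9% and 19.8% of its counts on the 4 plates. Gadd45g split the cells: 143 lay at or above 100 CPM, 6 between 20 and 100, and 141 below 20 (71 of them at 0). Cdkn1b and Cdkn1c reached 100 CPM in 109 and 88 cells, and Btg1 and Gadd45a in 145 and 149. Cdkn2c was at 0 in 262 cells and had 510 counts in all, so little can be read from it. A cell held 5 or more counts of a median of 4, 5, 5 and 5 of the 8 genes.

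**Figure D1:**
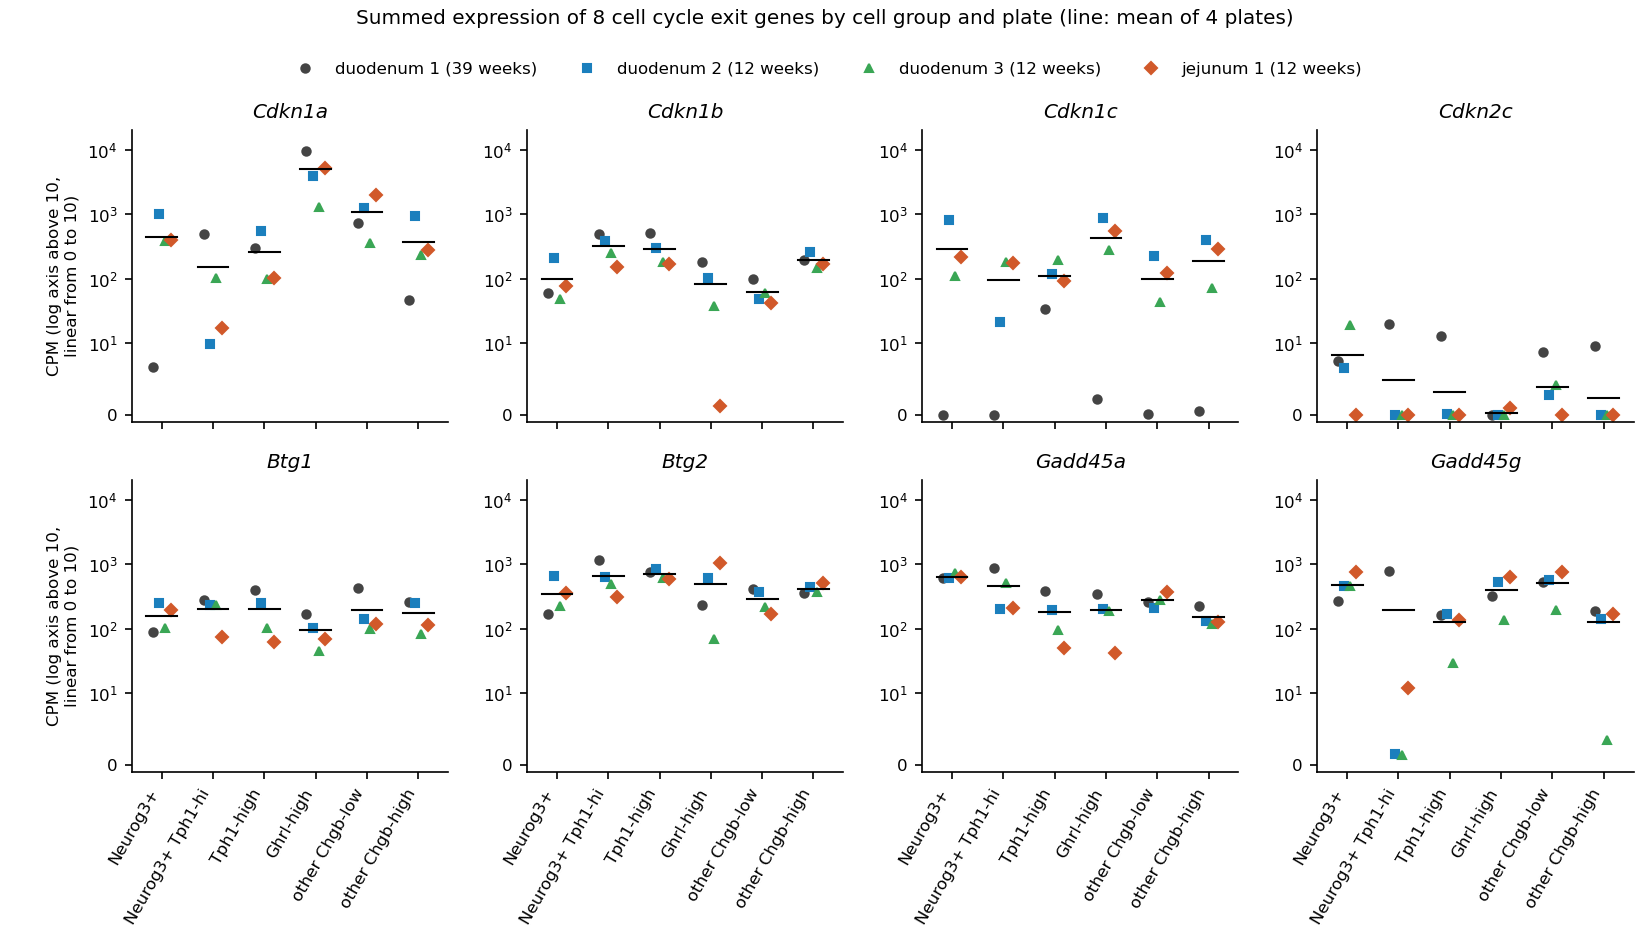
Summed CPM of each member (y axis, logarithmic above 10 and linear from 0 to 10) in the 6 groups without overlap (x axis); each symbol is 1 plate and each line the mean of 4 plates. Cdkn1a stands highest in Ghrl-high cells on all 4 plates, and the 4 Gadd45a values of Neurog3-positive cells lie close together, between 605 and 722 CPM.

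Cdkn1a was highest in Ghrl-high cells. Its summed level there was 9631, 3894, 1287 and 5200 CPM on the 4 plates, against 501, 899, 279 and 442 CPM in all other cells. Every Ghrl-high value lay above every value of the other cells, and the ratio within a plate ran from 4.33 to 19.2. Duodenum plates 1 and 3 had 2 Ghrl-high cells each. On duodenum plate 3, 1 of them held 88.6% of the Cdkn1a counts and the other had 284 CPM. The mean was 5003 ± 3488 CPM (SD, n = 4) against 530 ± 263 CPM. This was the one gap in the order of the 6 groups of Cdkn1a that was larger than the spread, with the other Chgb-low cells next at 1081 ± 718 CPM. The median Ghrl-high cell had 3848 CPM, 10 of the 16 cells were in the top 10% of their plate, and 15 of 16 were at or above 100 CPM. The exception, a cell of duodenum plate 2 with 6438 CPM of Ghrl, had 12.6 CPM of Cdkn1a and was Chgb-high (14755 CPM).

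The edgeR quasi-likelihood test needed at least 3 cells on each side of a plate, which left duodenum plate 2 and the jejunum plate for Ghrl-high cells. On those plates Cdkn1a was 2.84 higher on the log2 scale (SE 0.421), with an adjusted p (Benjamini-Hochberg) of 0.406. That fit called 0 of 13319 genes, 0% in either direction, with 901 genes at an unadjusted p under 0.05; DESeq2 called 2.82% of the genes and no member. With plates of 2 or more Ghrl-high cells admitted, a choice made after the data had been seen, all 4 plates entered. The Cdkn1a difference was then 2.88, with an edgeR adjusted p of 0.000185, among 15 of 11805 genes called (0.127%), and Cdkn1a was the one member called, while limma on the same plates gave it an adjusted p of 0.10. A Ghrl threshold of 5000 CPM, again on 2 plates, gave Cdkn1a 2.66, no larger than the 2.84 of the main fit. Its edgeR adjusted p was 2.937e-29, and 0.415% of genes were called. Limma on the plates of the main comparison, with cells weighted alike, called 0.143% of the genes and of the members Cdkn1a alone (4.19, adjusted p 2.414e-10). Over the alternatives run, the adjusted p of Cdkn1a ranged from 2.937e-29 to 0.4137, and its direction was the same in each. Fits on 2 plates estimate the spread from very few values, so their p-values, small or large, are not firm.

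Cells of other classes moved with that comparison. Summed goblet markers were 1307 to 12642 CPM in Ghrl-high cells and 6090 to 15559 CPM in the rest, and summed Paneth markers 556 to 3967 against 1650 to 7936 CPM. Summed pan-endocrine markers, which include Chgb, were 2393 to 13582 against 19057 to 52352 CPM. Summed enterochromaffin markers were 130 to 2499 CPM in Ghrl-high cells and 2379 to 8853 CPM in the rest, which include the 97 Tph1-high cells, and 3 of 6 fell in the edgeR fit with all 4 plates. Summed non-epithelial markers were 0 to 46.2 CPM against 283 to 1521 CPM. All 4 tuft markers in the table were at 0 in Ghrl-high cells. Without the 83 cells in which goblet and Paneth markers together reached 10000 CPM, and with 2 or more cells per side, the Cdkn1a difference was 2.92 with an edgeR adjusted p of 3.838e-09. That fit called 9.68% of the genes, nearly all of them lower, with a median of -2.58 over all genes.

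**Figure D2:**
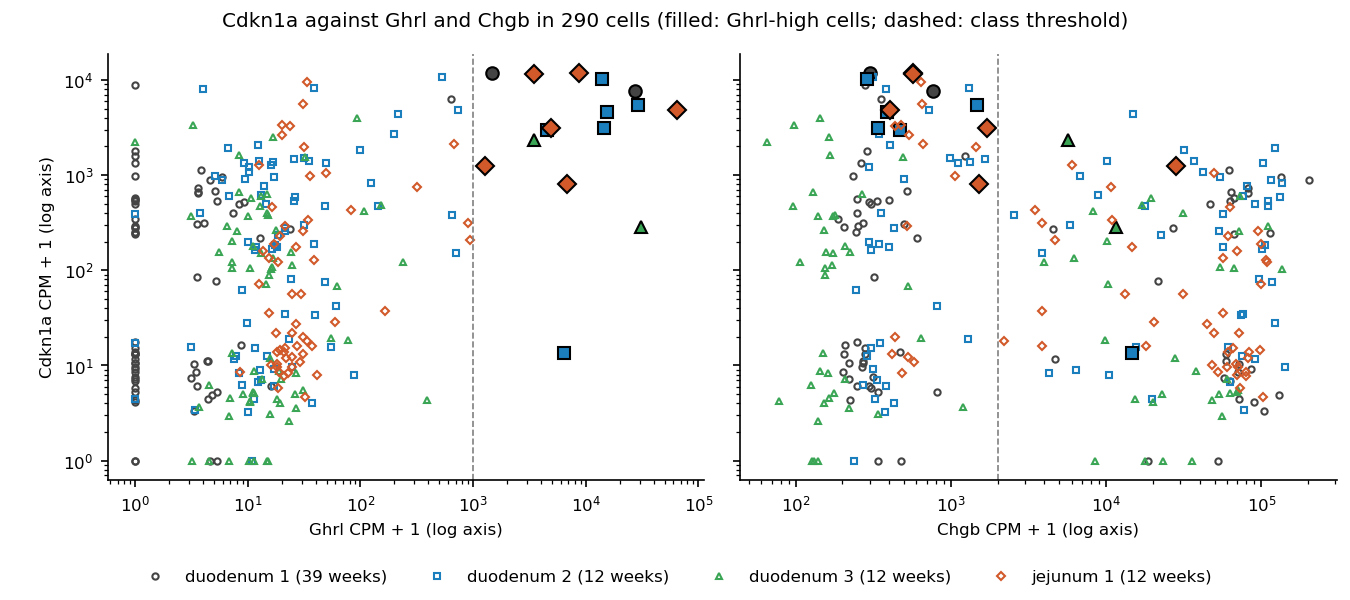
Cdkn1a in each of 290 cells (y axis, CPM + 1, log axis) against Ghrl (left) and Chgb (right, CPM + 1, log axes); filled symbols are the 16 Ghrl-high cells and dashed lines the class thresholds. Of the filled cells, 15 lie at or above 100 CPM of Cdkn1a, and 12 of the 16 lie left of the Chgb threshold.

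The remaining Cip/Kip inhibitors took different directions in Ghrl-high cells. Cdkn1c was 2.14, 871, 278 and 539 CPM there, against 9.56, 281, 97.1 and 148 CPM in other cells. It was higher on 3 of 4 plates, and low on both sides of duodenum plate 1. The edgeR difference was 1.75 (SE 0.36, adjusted p 0.406), and 2.34 with an adjusted p of 0.0239 at a Ghrl threshold of 5000 CPM. Cdkn1b was 182, 104, 38.0 and 1.17 CPM in Ghrl-high cells, against 239, 192, 104 and 144 CPM in other cells. It was lower on all 4 plates, with overlapping ranges and an edgeR difference of -3.71 (SE 2.06, adjusted p 0.514). Of the other members none passed the threshold: Btg1 had a log2 difference of -0.70, Btg2 0.62, Gadd45a -1.01 and Gadd45g 0.96, with adjusted p from 0.406 to 0.859. Cdkn2c had 3 counts in all Ghrl-high cells, on the jejunum plate, and counts of 0 on the other plates allow up to 6.42, 1.22 and 2.37 CPM; its fitted value of 1.11 rests on those counts. The median over all genes tested was -1.11, and -0.91 with the RLE scaling, so values near it are at the level of the typical gene. Mki67 had 0 counts in the Ghrl-high cells of these 2 plates, which allows up to 1.22 and 0.88 CPM, so no fold is given.

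Ghrl-high cells, 1 kind of peptide hormone cell, were also set against Tph1-high cells, the serotonin cells. Cdkn1a in Tph1-high cells was 331, 484, 100 and 97.4 CPM, which puts the Ghrl-high cells 8.05 to 53.4 times higher within a plate. The edgeR difference was 4.34 (SE 0.826, adjusted p 0.412) on the 2 plates with 3 or more cells, where 4 of 11069 genes were called (0.0361%) and no member was. It was 4.19 with an edgeR adjusted p of 0.000633 on all 4 plates (17 of 9518 genes called, 0.179%). DESeq2 was run on the 2 plates only. There it called 5.54% of the genes and gave Cdkn1a an adjusted p of 1.78e-06. With the raised thresholds of 5000 CPM of Ghrl and 1000 CPM of Tph1, on 2 plates, edgeR called 0.838% of the genes. Of the members it called Cdkn1a (4.75, adjusted p 7.874e-21) and Cdkn1c (3.05, adjusted p 0.00704), with the same 2-plate limit on these p-values. Cdkn1b had a difference of -4.18 (SE 1.73, adjusted p 0.547; 0.0151 by DESeq2), and Cdkn1c 2.71 (SE 0.518, adjusted p 0.414; 0.0039 by DESeq2). Gadd45g was 2.02 with an edgeR adjusted p of 0.547, Btg1 -0.61, Btg2 0.21 and Gadd45a -0.25. The median over all genes tested was -0.81. Cdkn2c was not tested there. With 2 or more cells per side, Mki67 had a difference of -4.72 (adjusted p 0.27).

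Cells with other peptide hormones were described after the values had been seen, with the Ghrl-high median of 3848 CPM of Cdkn1a beside them. The 11 cells with at least 1000 CPM of Gip, on 3 plates and none of them Ghrl-high, had a median of 944 CPM. The 29 cells at that level of Cck that were not Ghrl-high had a median of 380 CPM, and 8 such cells of Gcg a median of 314 CPM. For Sct the median was 259 CPM (33 cells), for Nts 265 CPM (2 cells) and for Pyy 209 CPM (3 cells). The 2 cells at that level of Sst, on 1 plate, had 1421 and 4426 CPM. A cell can count under several hormones. High Cdkn1a was not limited to Ghrl-high cells, since 17 of the 103 other Chgb-low cells were also in the top 10% of their plate.

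Tph1-high cells had less Cdkn1a and more Cdkn1b than other cells on every plate. Cdkn1a was 331, 484, 100 and 97.4 CPM in Tph1-high cells against 853, 1376, 381 and 1618 CPM in other cells. The ranges overlapped between plates, and the edgeR difference was -2.35 (SE 0.476, adjusted p 0.0792). Cdkn1b was 499, 306, 205 and 168 CPM against 108, 131, 68.7 and 92.4 CPM. All 4 Tph1-high values lay above all 4 of the other cells, at 1.82 to 4.63 times within a plate, and the edgeR difference was 1.28 (SE 0.256, adjusted p 0.0774). At or above 5 counts, Cdkn1b was found in 57 of the 80 Tph1-high cells that were not Neurog3-positive and in 12 of the 17 that were. It was found in 22 of the 41 other Chgb-high cells, 12 of the 33 Neurog3-positive cells, 5 of the 16 Ghrl-high cells and 31 of the 103 other Chgb-low cells. Depth differed, with medians of 522624 counts in the 80 cells and 378663 in the 103.

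Gadd45g and Btg2 parted in the same cells. Gadd45g was 266, 151, 19.9 and 129 CPM in Tph1-high cells against 466, 434, 225 and 491 CPM in other cells, lower on all 4 plates with a difference of -2.08 (SE 0.469, edgeR adjusted p 0.108). Btg2 was 822, 807, 569 and 561 CPM against 375, 449, 234 and 471 CPM, with ranges that did not overlap and a difference of 0.70 (SE 0.202, edgeR adjusted p 0.202). None of the 8 members passed the threshold there, where edgeR called 228 of 12835 genes (1.78%). DESeq2, which called 13.4% of the genes, called Cdkn1a (9.301e-07), Cdkn1b (0.000312), Gadd45g (4.473e-05) and Btg2 (0.0221). Limma on cells weighted alike, which called 6.43% of the genes, called Cdkn1b (0.00249) and Gadd45g (0.00187). Without the Neurog3-positive cells edgeR called Gadd45g (-1.91, adjusted p 0.0435) and 0.702% of all genes. The others had values of -0.74 (Gadd45a), -0.13 (Btg1), 0.25 (Cdkn1c) and -4.30 (Cdkn2c), with adjusted p from 0.398 to 0.958, and Mki67 had 1.20 (adjusted p 0.887).

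Btg2 levels ran beside those of immediate-early genes, which cells switch on within minutes of stimulation or dissociation. In Tph1-high cells 7 of 17 immediate-early and stress genes rose (edgeR; Nr4a1 by 4.11, Fosb by 2.09 and Dusp1 by 1.86 on the log2 scale, and also Fos, Jun, Klf6 and Jund), none fell, and the list's median was 1.60 against -0.15 over all genes. Their summed level was 7763 to 11678 CPM in Tph1-high cells and 2455 to 3445 CPM in other cells. The part of these genes in the Btg2 values was not tested.

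Markers of several other cell types moved with the Tph1-high comparison. Of the goblet markers 5 of 6 tested fell (log2 differences of -8.12 for Guca2a, -6.38 for Agr2 and -4.73 for Tff3), and of the Paneth markers 5 of 6 (-6.26 for Defa17 and -5.67 for Itln1). Summed goblet markers were 519 to 1129 CPM in Tph1-high cells and 13789 to 22549 CPM in the rest. Of 6 peptide hormones tested 4 fell (list median -6.69). Of 3 non-epithelial markers tested, the intermediate filament gene Vim rose (by 4.37) and the leukocyte gene Cd52 fell (-7.55), and their summed level was 783 to 2670 CPM in Tph1-high cells and 25.7 to 177 CPM in the rest. The part of these markers in the members' values was not tested. With only the cells at or above 2000 CPM of Chgb on both sides, the differences were -0.64 for Cdkn1a (edgeR adjusted p 0.98), 0.66 for Cdkn1b (0.94), -0.32 for Gadd45g (0.98) and 0.86 for Btg2.

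In the main edgeR fits, at the class thresholds given above, 2 members passed the threshold, both in Chgb-low cells. Cdkn1b fell and Gadd45g rose there, and no member passed in the other main fits. Cdkn1b was 98.7, 74.2, 50.0 and 38.6 CPM in Chgb-low cells against 430, 277, 174 and 163 CPM in the others. The ranges did not overlap, the ratio within a plate was 0.23 to 0.287, and the edgeR difference was -1.57 (SE 0.212, adjusted p 0.0168). Gadd45g was 513, 571, 282 and 713 CPM against 244, 161, 25.7 and 164 CPM. Again the ranges did not overlap, the ratio was 2.11 to 11, and the difference was 2.503 (SE 0.45, adjusted p 0.0424). These 2 of 8 members stand beside 504 of 12678 genes called (3.98%; 2.48% higher and 1.49% lower).

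Cdkn1a was 976, 1702, 375 and 2776 CPM in Chgb-low cells against 270, 601, 226 and 173 CPM in the others, higher on all 4 plates. Its edgeR difference was 2.38 (SE 0.515, adjusted p 0.0694), and 0.0342 without the jejunum plate. The Chgb-low class included 12 of the 16 Ghrl-high cells. In the 103 other Chgb-low cells, neither Ghrl-high nor Neurog3-positive, Cdkn1a was 721, 1245, 350 and 2007 CPM. Without the Ghrl-high cells edgeR did not call Cdkn1a, while Cdkn1b had an adjusted p of 0.0179 and Gadd45g one of 0.0569. Gadd45a was 283, 284, 408 and 332 CPM against 427, 187, 220 and 85.3 CPM, with a difference of 1.13 (SE 0.426, adjusted p 0.212; 0.0276 by DESeq2). The rest had values of 1.76 (Cdkn2c), 0.28 (Btg1), -0.27 (Btg2) and -0.70 (Cdkn1c), with adjusted p from 0.43 to 0.779. DESeq2 called Cdkn1a, Cdkn1b, Gadd45a and Gadd45g, among 20.4% of all genes, and limma on cells weighted alike Cdkn1a, Cdkn1b and Gadd45g, among 15.9%.

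Both calls were lost with any 1 plate left out, when the edgeR adjusted p of Cdkn1b was 0.0585 to 0.107 and that of Gadd45g 0.0625 to 0.174. The differences kept their size: over all 13 alternatives Cdkn1b lay between -2.08 and -1.51 and Gadd45g between 1.88 and 2.83. Without the replicate block of the plate they were 0.0597 and 0.0647, while Cdkn1a had 0.0427.

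The Chgb-low class was rich in goblet and Paneth markers. Of 6 goblet markers tested 5 rose (Guca2a by 8.80, Muc2 by 6.32 and Tff3 by 4.80 on the log2 scale), 3 of 6 Paneth markers rose (Defa17 by 6.79, Defa24 by 4.96 and Ang4 by 4.20), and 6 of 6 enterochromaffin markers fell (log2 differences of -7.17 for Afp, -6.83 for Tph1 and -6.28 for Lmx1a). Summed goblet markers were 18407 to 25764 CPM against 832 to 1508 CPM, and Paneth markers 3135 to 13280 against 328 to 1056 CPM. Summed non-epithelial markers were 10.7 to 35.9 CPM against 645 to 1841 CPM. With the cells of 10000 or more CPM of these markers left out, the difference was -1.80 for Cdkn1b (edgeR adjusted p 0.36, SE 0.849) and 2.19 for Gadd45g (adjusted p 0.0774), so both were about as large, and Cdkn1a had an adjusted p of 0.0631. With a threshold of 500 CPM of Chgb, Cdkn1b had an adjusted p of 0.259, Gadd45g 0.0461 and Cdkn1a 0.0197.

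**Figure D3:**
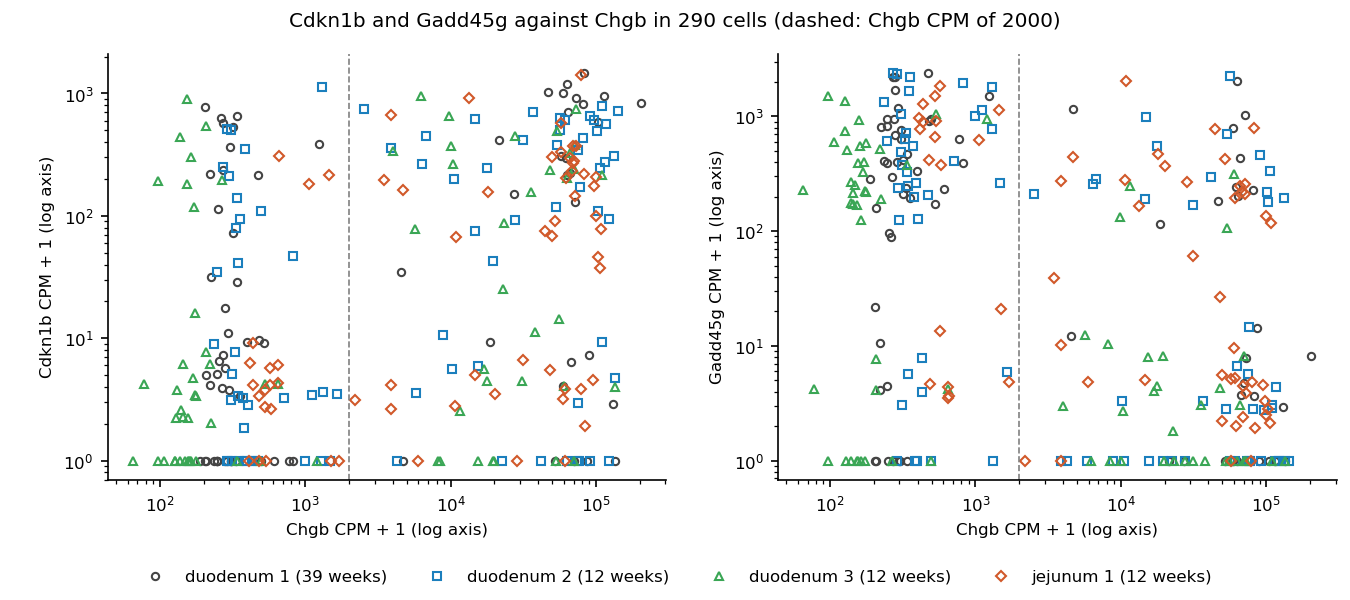
Cdkn1b (left) and Gadd45g (right) in each of 290 cells (y axes, CPM + 1, log axis) against Chgb (x axes, CPM + 1, log axis); symbols mark plates and the dashed line the threshold of 2000 CPM. Gadd45g cells form a high and a low band, with 6 cells between 20 and 100 CPM, and each gene has cells of both kinds on both sides of the line.

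Few of the pathway's other genes were called in Chgb-low cells, where 2.48% of all genes tested were higher. Of 22 S, G2 and M phase genes tested, 2 rose: Cdk1, the mitotic kinase, by 7.64 and Ube2c, a ubiquitin-conjugating enzyme of mitotic exit, by 4.23 on the log2 scale. That list's median was 2.47 against -0.08 over all genes, and its summed level was 217 to 941 CPM against 128 to 287 CPM. DESeq2 called 8 of the 22 higher, beside 1109 of all 12678 genes tested. In Tph1-high cells the median of the 22 genes tested from that list was -3.65, with 0 called by edgeR. DESeq2 called 9 of them lower there, beside 949 of all 12835 genes tested. Of 14 G1 cyclin and kinase genes 1 rose, the Cdkn2c target Cdk4 (by 1.52, adjusted p 0.0167). Of 15 p53 pathway genes 1 rose, Rps27l (by 1.39, adjusted p 0.0118), with a list median of 0.43. Of 17 immediate-early and stress genes 4 fell (Nr4a1, Fosb, Klf6 and Fos) and 1 rose (Ddit4). None of the 2 other kinase inhibitors tested (Cdkn2b and Cdkn2d), the 4 other Btg/Tob and Gadd45 genes, or the 12 pocket protein and repressor E2F genes was called. Mki67 itself had a difference of -0.91 (adjusted p 0.898). The Chgb-low and Tph1-high comparisons share cells, since every Tph1-high cell is on the Chgb-high side, so their opposite values are not separate evidence.

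Gadd45a was highest in Neurog3-positive cells. It was 746, 511, 660 and 438 CPM there, against 296, 186, 211 and 115 CPM in all other cells. The ranges did not overlap, and the ratio within a plate was 2.52 to 3.82. The edgeR difference was 1.65 (SE 0.254), with an unadjusted p of 0.000384 and an adjusted p of 0.398; 0 of 8 members and 3 of 12438 genes were called (0.0241%). DESeq2, which called 6.46% of the genes, gave Gadd45a an adjusted p of 0.000254, and the alternatives ranged from 0.0002541 to 0.8999.

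Neurog3-positive cells that were not Tph1-high held 605, 617, 722 and 621 CPM of Gadd45a, against 376, 194, 112 and 48.4 CPM in cells that were Ghrl-high or Tph1-high and Neurog3-negative. The groups did not overlap, and the former mean was 641 ± 54.5 CPM (SD, n = 4). The latter cells are called hormone-high below. They leave out the 41 other Chgb-high cells, whose summed peptide hormone markers were 382 to 137462 CPM. In that comparison the difference was 2.42 (SE 0.631, edgeR adjusted p 0.177), 0.00824 by DESeq2 (15.6% of genes called) and 0.0219 by limma (2.13% of genes called). By cell, 32 of the 33 Neurog3-positive cells outside the Tph1-high class had 5 or more Gadd45a counts and 29 reached 100 CPM, with a median of 631 CPM. Of the 80 Tph1-high cells without Neurog3, 62 had 5 or more counts, with a median of 56.0 CPM. Of the 103 other Chgb-low cells 88 did, with a median of 127 CPM, and 57 reached 100 CPM. An overlapping transcript on the opposite strand, E230016M11Rik, had 104 counts in the table against 36134 of Gadd45a.

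Gadd45g, the other Gadd45 gene, was 263, 457, 456 and 752 CPM in Neurog3-positive cells outside the Tph1-high class against 175, 234, 47.1 and 201 CPM in hormone-high cells. It was higher on all 4 plates, and the difference was 1.89 (SE 0.609, edgeR adjusted p 0.272; 0.0376 by DESeq2). Of the 33 cells 23 had 5 or more counts, against 3 of the 17 that were both Neurog3-positive and Tph1-high. The same held for 13 of the 16 Ghrl-high and 72 of the 103 other Chgb-low cells. It held for 29 of the 80 other Tph1-high and 15 of the 41 other Chgb-high cells. A high share was thus not particular to Neurog3-positive cells. Against all other cells, Neurog3-positive cells of any kind had a Gadd45g difference of 0.65 (adjusted p 0.74).

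The kinase inhibitors showed no called difference by Neurog3 state. Cdkn1a was 259, 747, 297 and 230 CPM in Neurog3-positive cells against 730, 1146, 319 and 847 CPM, lower on all 4 plates, with a difference of -0.97 (SE 0.342, edgeR adjusted p 0.60). Against hormone-high cells its values were 6.63, 1000, 382 and 399 CPM against 916, 1162, 304 and 751 CPM, with a difference of -0.96 (adjusted p 0.765). Cdkn1b differed by 0.21 against all other cells and by -1.24 against hormone-high cells (adjusted p 0.938 and 0.50). The latter rested on 60.5, 206, 47.9 and 75.5 CPM against 479, 260, 159 and 148 CPM, lower on all 4 plates. Cdkn1c had -0.09 and -0.22, Cdkn2c 1.27 and 3.53, Btg1 0.23 and 0.25, and Btg2 0.04 and -0.86 in these comparisons, all with adjusted p of 0.465 or more. Cdkn2c, the gene with the fewest counts, was 13.8, 4.84, 13.3 and 0 CPM in Neurog3-positive cells against 9.88, 1.12, 2.38 and 0.0709 CPM; the 0 allows up to 0.716 CPM. Mki67 had -4.22 and -3.93 (edgeR adjusted p 0.72 and 0.507). The medians over all genes tested were -0.55 and -0.89 in these comparisons, so values near them are at the level of the typical gene.

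In the comparison with hormone-high cells edgeR called 93 of 10132 genes (0.918%) and no member. Its goblet markers included 3 of 6 that rose (Tff3 by 3.24, Spink4 by 3.13 and Fcgbp by 3.02 on the log2 scale), and 3 of 5 enterochromaffin markers fell (log2 differences of -8.03 for Afp, -6.17 for Ucn3 and -5.48 for Tac1), as did 1 of 17 immediate-early genes (-1.99 for Jun). In the comparison with all other cells 3 peptide hormones fell (log2 differences of -6.41 for Gcg, -5.95 for Ghrl and -4.77 for Cck), and summed goblet markers were 3759 to 15047 CPM in Neurog3-positive cells and 6084 to 16650 CPM in the rest. The part of these cells in the Gadd45a and Gadd45g values was not tested.

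**Figure D4:**
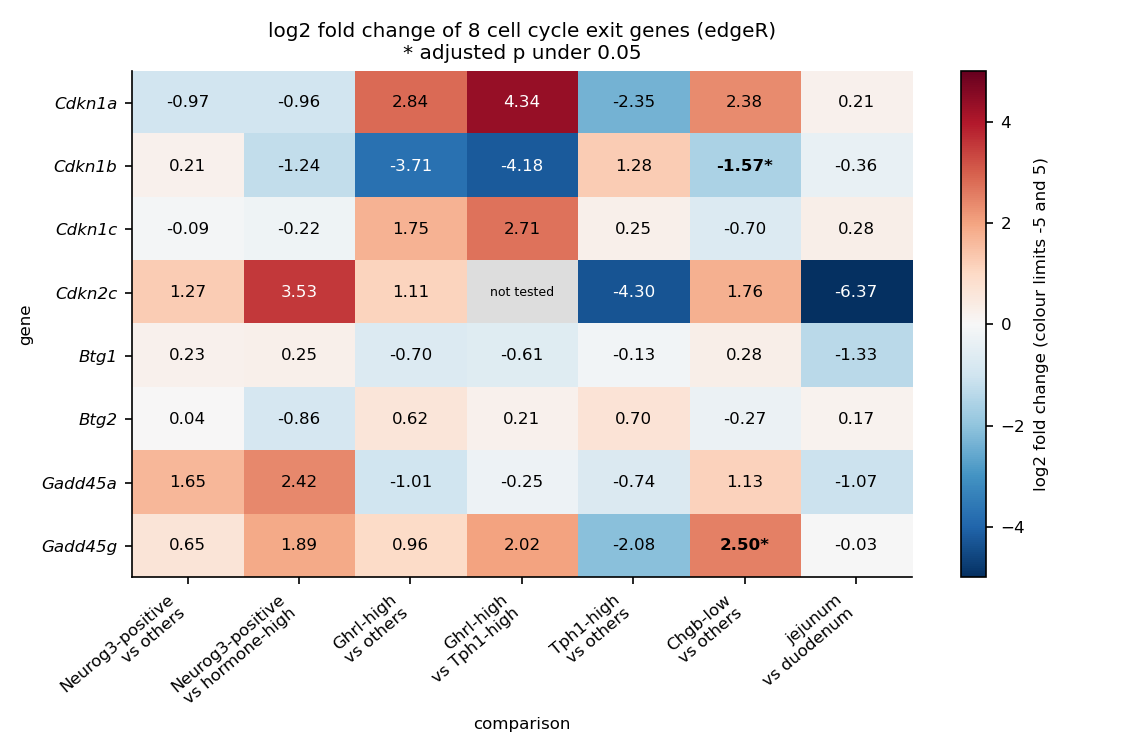
Log2 fold change from edgeR (colour and printed value, colour limits -5 and 5) of each member (rows) in 7 comparisons (columns). The 2 starred cells, Cdkn1b at -1.57 and Gadd45g at 2.503 in Chgb-low cells, had an adjusted p under 0.05.

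In the order of the groups without overlap, most gaps between neighbours were no larger than the spread between plates. That spread leaves out the pairing of groups by plate, and the gaps were not tested. For Cdkn1b the order was Neurog3-positive and Tph1-high cells (319 ± 150 CPM, SD, n = 4), Tph1-high cells (287 ± 153), other Chgb-high cells (193 ± 49.6), Neurog3-positive cells (97.4 ± 73.1), Ghrl-high cells (81.2 ± 79.4) and other Chgb-low cells (61.3 ± 24.9). The drop from other Chgb-high to Neurog3-positive cells was the one larger than the spread. For Gadd45g, other Chgb-low (510 ± 234), Neurog3-positive (482 ± 201) and Ghrl-high cells (402 ± 222) were followed by the 17 Neurog3-positive and Tph1-high (197 ± 384), Tph1-high (125 ± 65.4) and other Chgb-high cells (125 ± 83.2), with no gap beyond the spread. For Btg2, Tph1-high cells were first (693 ± 119) and other Chgb-low cells last (288 ± 115). Btg1 ran from 204 ± 88.2 in Neurog3-positive and Tph1-high cells to 96.2 ± 53.5 CPM in Ghrl-high cells, the flattest order of the 8. Cdkn1c was first in Ghrl-high cells (423 ± 371), followed by Neurog3-positive cells (288 ± 367), again within the spread. Gadd45a ran from 641 ± 54.5 in Neurog3-positive cells through 451 ± 318 in those also Tph1-high to 150 ± 49.9 CPM in other Chgb-high cells.

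Mki67 was rare. It had 5 or more counts in 10 cells and at least 1 count in 27, and its level over each plate was 1.93, 11.8, 37.7 and 3.59 CPM. The 10 cells were deep, with a median of 1174780 counts against 416408 in the other 280 cells, so shares of cells with a count are not compared. Their summed S, G2 and M phase genes had a median of 1648 CPM against 70.6 CPM, and 1501 against 69.1 CPM with Mki67 itself left out. Of the 10, 4 were Tph1-high, 4 Chgb-low (1 of them also Neurog3-positive), 1 Ghrl-high and 1 among the other Chgb-high cells.

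No Mki67-positive cell was among the cells highest in Cdkn1a. The highest had 284 CPM of Cdkn1a, and that cell, Ghrl-high and with 5 Mki67 counts, had summed phase genes of 102 CPM. The median was 91.3 CPM in Mki67-positive cells against 130 CPM in the others. Summed over each plate, Cdkn1a was 237, 39.6, 97.7 and 173 CPM in Mki67-positive cells against 686, 1184, 350 and 811 CPM in the others. It was lower on all 4 plates, at 0.0334 to 0.345 times, and the ranges did not overlap. Such sums are carried largely by the cells highest in Cdkn1a. By cell, 5 of the 10 Mki67-positive cells lay above their plate's median of Cdkn1a. On 2 plates the Mki67 side is 1 cell, and 6 of the 10 cells come from duodenum plate 3.

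Btg2 showed the same order. It was 70.7, 217, 177 and 195 CPM in Mki67-positive cells against 531, 594, 338 and 531 CPM, again without overlap, and the medians per cell were 134 and 328 CPM. Cdkn1b was also lower on all 4 plates (5.44, 21.4, 99.7 and 4.03 CPM against 242, 201, 102 and 138 CPM), though its median per cell was 14.9 CPM against 8.05 CPM. Cdkn1c and Btg1 were lower on all 4 plates and Gadd45a and Gadd45g on 3 of 4. Cdkn2c was the exception in direction, higher on 2 plates, with counts of 0 on the other 2.

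The planned test needs 3 or more cells per side and 2 or more plates, which left 1 plate, so no fit with 5 or more Mki67 counts is given on those terms. With 1 or more counts, 3 plates entered and 0 of 13007 genes were called (0%). Cdkn1a had a difference of -2.47 (edgeR adjusted p 0.62), Btg2 -0.93 (0.70) and Gadd45a -1.15 (0.62). The median over all genes tested was -0.50. With 1 or more cells per side, added after the data had been seen, 425 of 11865 genes were called (3.58%), all lower in Mki67-positive cells. No member was among them. Cdkn1a had -2.57 (edgeR adjusted p 0.13), near the median of -2.10 over all genes tested. Single cells on 1 side make those calls a statement about these cells.

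**Figure D5:**
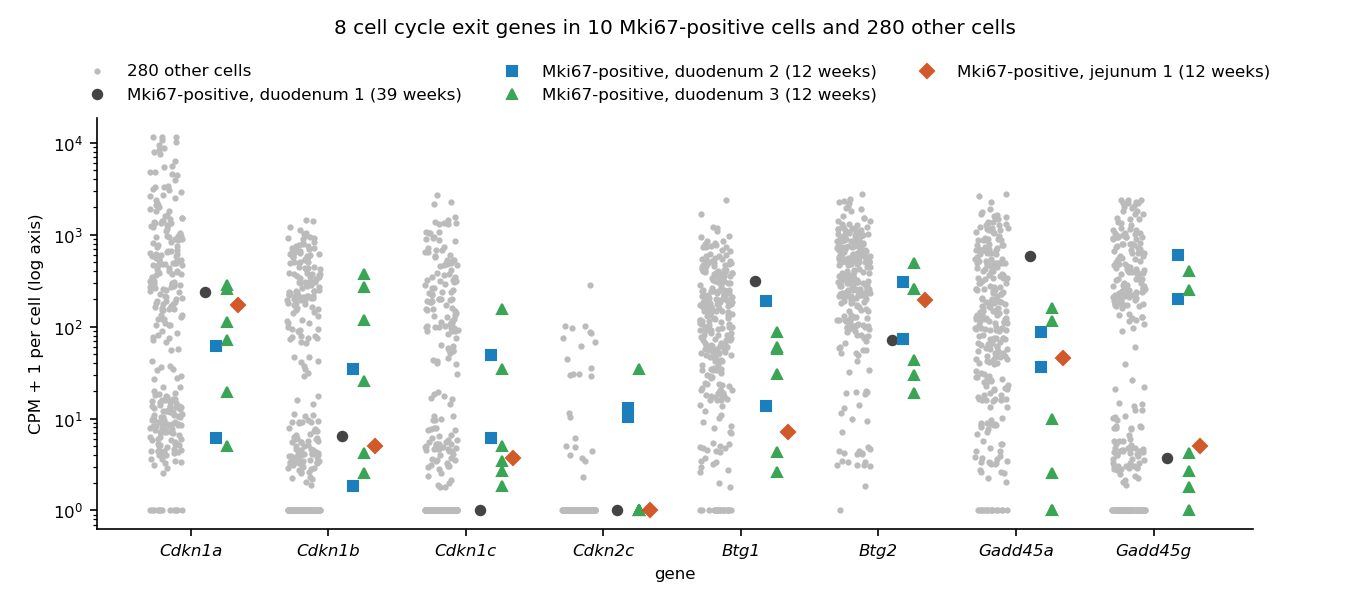
CPM + 1 per cell (y axis, log axis) of the 8 members (x axis) in 280 cells without and 10 cells with 5 or more Mki67 counts, the latter by plate. The Mki67-positive cells reach at most 284 CPM of Cdkn1a and 497 CPM of Btg2, below the highest of the other cells.

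Rank correlations with Mki67 within plates were weak, and 27 of 290 cells had a Mki67 count. Averaged over the 4 plates, Spearman's rho across 63 to 83 cells per plate was -0.193 for Btg2 (below 0 on all 4 plates), -0.0933 for Gadd45a, -0.0705 for Btg1, -0.0637 for Gadd45g, -0.0539 for Cdkn1c, -0.0326 for Cdkn1a, 0.0109 for Cdkn1b and 0.0966 for Cdkn2c. With summed S, G2 and M phase genes the means were -0.137 for Cdkn1b, below 0 on all 4 plates, and 0.127 for Gadd45g and 0.116 for Gadd45a. The cells of a plate share library preparation and sequencing, and in sparse counts such values are a description only.

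Among the members themselves, Gadd45a and Gadd45g had the highest mean rho across cells (0.24, above 0 on all 4 plates), with 82 cells at or above 100 CPM of both. Cdkn1a and Cdkn1c followed (0.212, from -0.0172 on duodenum plate 1, where Cdkn1c was low, to 0.405). Cdkn1b and Btg2 had 0.17, above 0 on all plates. Cdkn1b and Gadd45g were the lowest pair (-0.168, below 0 on 3 of 4 plates). Cdkn1a and Cdkn1b were both at or above 100 CPM in 61 cells, with 92 cells for Cdkn1a alone and 48 for Cdkn1b alone.

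The genes most like each member across cells were taken from 7537 or 7538 genes compared. Cdkn1a was nearest to the neurofilament gene Nefm (mean rho 0.398). Cdkn1b was nearest to Tac1 (0.40), which encodes substance P, and to Tph1 (0.352). Cdkn1c was nearest to Scgn (0.308) and Pax6 (0.293), Btg2 to the immediate-early genes Fos (0.406) and Egr1 (0.39), and Cdkn2c to the chromatin protein gene Hmgb2 (0.236) and Siva1 (0.223). Gadd45g was nearest to the ribosomal protein genes Rps25 (0.397) and Rps3a1 (0.394), Gadd45a to Smarcd2 (0.342) and Rph3al (0.328), and Btg1 to Dhx40 (0.222) and Kdm6a (0.204). These are means over 4 plates of cells that share depth and class, and depth itself had a mean rho of -0.129 with Gadd45a and between -0.0412 and 0.0757 with the others.

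By tissue, edgeR called no member between the jejunum plate and the 3 duodenum plates, where it called 0 of 19329 genes (0%); DESeq2 called 3.78% of the genes and 1 member, Cdkn2c. Over all cells Cdkn1a was 679, 1092 and 313 CPM in the duodenum and 791 CPM in the jejunum (difference 0.21, SE 0.675, edgeR adjusted p 1.00). Cdkn1b was 238, 186, 102 and 134 CPM, Btg2 524, 563, 315 and 520 CPM, and Gadd45g 400, 344, 175 and 294 CPM, so the jejunum lay within the duodenum range for these. It was lowest for Btg1 (370, 203 and 108 against 87.6 CPM; -1.33, adjusted p 0.934), Gadd45a (344, 230 and 330 against 144 CPM; -1.07, adjusted p 0.934) and Cdkn2c (10.3, 1.62 and 5.28 against 0.0645 CPM; -6.37, adjusted p 0.934, 0.0121 by DESeq2). Mki67 had -2.33 (adjusted p 0.934). With 1 jejunum plate, tissue, plate and animal cannot be told apart.

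Duodenum plate 1, the single plate of 39 weeks, stood apart in Cdkn1c, which had 9.42 CPM there against 319, 103 and 176 CPM on the other plates. At 5 or more counts it was found in 5.56% of that plate's cells, against 65.1%, 48.6% and 54.0% on the others. Cdkn1b, Cdkn2c, Btg1, Gadd45a and Gadd45g were highest on that plate. It was also the shallowest plate, and age, animal, plate and depth cannot be told apart.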

How the data were processed

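Raw counts per gene and well for 290 single cells were used as the authors deposited them, whole numbers for 29161 genes, 29120 with a symbol. Cells held 202711 to 2312044 counts, and the largest single value was 643177. Whether PCR copies were collapsed is not given in the sources used here, so limits for a count of 0 (3 counts) cover counting error only. Per the submitters' processing notes, which give neither role nor order, the tools were bcl2fastq 2.17.1.14, cutadapt 1.10, Bowtie2 2.2.8, STAR 2.5.3a, UMI-tools 0.4.4 and HTSeq 0.6.1, with build mm10; whether counting used strand is not given in the sources used here. Columns were joined to samples by the experiment number in the column name and the pool number in the sample title, which left 0 columns over. Tissue and age rest on that match. Wells received 1 sorted cell, and no doublet caller was run.

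Levels are CPM from counts summed over the cells of a class on a plate, so deeper cells weigh more. These sums, not cells, were compared with edgeR 4.0.16 (R 4.3.3; quasi-likelihood test, TMM, filterByExpr, plate as block, two-sided, Benjamini-Hochberg threshold 0.05), with at least 3 cells per side. A class is set by the level of 1 gene, so the class-defining genes were left out of the counts of genes called. Standard errors are those of the fitted log2 fold change. Alternatives used DESeq2 1.42.0, limma 3.58.1 on mean log2(CPM + 10), other scaling, filters, thresholds and cells, and each plate left out. The edgeR fit was tested on simulated data. Python 3.11.15 with numpy 2.4.6, pandas 2.3.3 and scipy 1.17.1 gave the other values.

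The rule for naming was every member and Mki67 in each comparison, the 2 genes with the highest mean rank correlation per member (among genes with 5 or more counts in at least 10% of cells), and up to 3 genes per list. A gene that the rule names is not reported here. The members and gene lists were chosen with earlier results of these data known. Of the listed genes 3 were absent from the table (Cdkn2a, Fabp1 and Trpm5). Gene positions come from GENCODE M21 (GRCm38) by Ensembl identifier. A gap between groups was called larger than the spread when the difference of means exceeded the root of the summed squared SDs. Neurog3 overlaps Fam241b on the opposite strand. Same-named wells of different plates had a median rank correlation of 0.291, and other pairs of different plates 0.291.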

Additional observations from a re-analysis of the deposited data

Results flagged for a closer look

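In 6 cases the jejunum plate differed in direction from all 3 duodenum plates. The differences between tissues were not tested, each tissue value rests on single plates, and the jejunum has 1 plate. Values are log2 ratios of summed CPM with 10 CPM added to both sides, in the order duodenum plates 1, 2 and 3 and jejunum plate. Cdkn1b in Neurog3-positive against other cells had 0.30, 0.49, 0.12 and -0.29. Cdkn2c in the same comparison had 0.26, 0.42, 0.92 and -0.010, and in Ghrl-high against other cells -1.04, -0.23, -0.63 and 0.12, with 3 counts of Cdkn2c on the whole jejunum plate. Btg1 in Tph1-high against other cells had 0.0087, 0.44, 0.57 and -0.80. Between Ghrl-high and Tph1-high cells, Btg1 had -1.09, -1.24, -1.50 and 0.13, and Btg2 had -1.80, -0.40, -2.89 and 0.88. The Ghrl-high side held 2, 6, 2 and 6 cells.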

How the results depend on the processing

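Across the alternatives, 531 fold changes of members kept their direction and side of the threshold, 30 newly passed it, 14 no longer passed it and 62 reversed; the cause was not tested. Cdkn1a in Ghrl-high, Tph1-high and Chgb-low cells, Cdkn1b in the same 3 classes, and Gadd45a in Neurog3-positive cells kept their direction in each alternative run. Low counts of Cdkn2c, 10 Mki67-positive cells and 16 Ghrl-high cells limit what depth and cell number can show. The comparison of Mki67-positive cells had no fit at 3 or more cells per side, and the restriction to cells of 2000 or more CPM of Chgb could not be fitted for Ghrl-high cells.

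The number of genes called moved with the tool. DESeq2 called 804 genes (3 with edgeR) in Neurog3-positive, 375 (0) in Ghrl-high, 1724 (228) in Tph1-high and 2592 (504) in Chgb-low cells, 1583 (93) between Neurog3-positive and hormone-high cells, 613 (4) between Ghrl-high and Tph1-high cells, and 731 (0) between jejunum and duodenum; it called 1, 0, 4, 4, 2, 3 and 1 members. Limma on cells weighted alike called 0, 19, 825, 2019, 216 and 8 genes in the first 6 of these, and 0, 1, 2, 3, 1 and 0 members. Without a filter on low counts, 6 genes were called in Ghrl-high cells, 24 between Ghrl-high and Tph1-high cells and 9 between the tissues.

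The replicate block is the plate, since both sides of a comparison come from the same plate. With no replicate block 0 genes were called in Neurog3-positive cells, 130 in Tph1-high cells and 20 between Neurog3-positive and hormone-high cells, and 1 member in Chgb-low cells in place of 2. Without the block, Cdkn1c was 0.82 in Neurog3-positive, -0.99 in Tph1-high and 0.45 in Chgb-low cells and 1.01 against hormone-high cells, Btg1 was -0.041 in Neurog3-positive cells, and Cdkn2c was -0.78 in Ghrl-high cells, all reversed; the block changed no other direction. Leaving out each plate in turn gave 0 to 3 genes in Neurog3-positive, 3 to 115 in Tph1-high and 113 to 290 in Chgb-low cells, 7 to 52 between Neurog3-positive and hormone-high cells and 0 to 10 between the tissues, with 0 to 1 members called in Chgb-low cells. Reversals among these were Cdkn1c (-0.74 to 0.71 in Neurog3-positive, -0.91 to 1.42 in Tph1-high, -1.46 to 0.19 in Chgb-low cells, -1.18 to 0.75 against hormone-high cells, -0.27 to 1.56 by tissue), Btg1 (-0.067 to 0.64, -0.30 to 0.13 in Tph1-high cells, -0.36 to 0.93 against hormone-high cells), Btg2 (-0.087 to 0.17, -0.016 to 0.32 by tissue), Cdkn1a (-1.80 to 0.033 against hormone-high cells, -0.12 to 0.69 by tissue) and Gadd45g (-0.29 to 0.15 by tissue). Duodenum plate 1, where Cdkn1c had almost no counts, gave each Cdkn1c reversal but one, that of Tph1-high cells without duodenum plate 3 (-0.30).

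Class thresholds and the cells compared also mattered. Taking Neurog3 at 1 or more counts gave 0 genes, Ghrl at 5000 CPM 55 genes and 2 members, Chgb under 500 CPM 298 genes, and raised thresholds 35 genes against hormone-high cells and 83 genes with 2 members between Ghrl-high and Tph1-high cells. At least 5 cells per side gave 0 genes against hormone-high cells. Only cells of 2000 or more CPM of Chgb gave 4 genes in Tph1-high cells and 3 against hormone-high cells. Added after seeing the data, 2 cells per side gave 15 genes and 1 member in Ghrl-high cells and 17 genes and 1 member against Tph1-high cells, and limma on the same plates 1 gene and then 8 genes with 1 member. Without cells high in goblet and Paneth markers there were 1, 13 and 159 genes in Neurog3-positive, Tph1-high and Chgb-low cells with 0 members in the last, and 1018 genes with 1 member in Ghrl-high cells. Leaving out Ghrl-high cells gave 0 genes in Neurog3-positive cells and 1 member in Chgb-low cells, and leaving out Neurog3-positive cells 87 genes and 1 member in Tph1-high cells.

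Further reversals are grouped by setting. With limma, Cdkn1c was 0.0020 in Neurog3-positive, -0.71 in Tph1-high and 0.17 in Chgb-low cells and 0.21 against hormone-high cells, Btg2 was -0.26 in Neurog3-positive cells, and Btg1 was 0.13 in Tph1-high and -0.17 in Chgb-low cells. With 2 cells per side, Cdkn2c was -3.37 and Btg2 -0.72 in Ghrl-high cells (-0.14 and -0.17 with limma), and against Tph1-high cells Btg2 was -1.24 (-0.68 with limma) and Gadd45a 0.20 with limma. Without cells high in goblet and Paneth markers, Cdkn1b was -0.019 and Btg2 -0.045 in Neurog3-positive cells, Cdkn1c -0.0065 and Btg1 0.022 in Tph1-high cells, and Cdkn2c -3.32, Btg2 -0.94 and Gadd45g -0.66 in Ghrl-high cells. In Neurog3-positive cells, 1 or more counts gave Cdkn1b -0.36 and Btg2 -0.18, 20 or more Btg2 -0.47, no filter Btg2 -0.10, leaving out Tph1-high cells Cdkn1b -0.19, Cdkn1c 0.58 and Btg2 -0.19, and leaving out Ghrl-high cells Cdkn1c 0.10. Only cells of 2000 or more CPM of Chgb gave Btg2 -0.092 in Neurog3-positive cells, Cdkn1c -0.12 and Btg1 0.071 in Tph1-high cells, and Cdkn1c 0.48 against hormone-high cells. Other class thresholds gave Btg1 0.027 in Tph1-high cells, Btg2 0.013 in Chgb-low cells, Cdkn1a 0.33 against hormone-high cells and Gadd45a 0.34 between Ghrl-high and Tph1-high cells. At least 5 cells per side gave Cdkn1a 0.30 and Cdkn1c 0.62 against hormone-high cells, and no filter gave Gadd45g 0.0087 by tissue.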
